A study of Mus musculus with 40 samples.

Results

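Expression of 37 genes of the tricarboxylic acid (TCA) cycle, the pyruvate dehydrogenase complex and the carriers and enzymes that feed or drain the cycle was examined in the renal cortex. They were picked by gene symbol from a list of the pathway, with earlier results of these data known, and are 37 of the 55401 gene rows measured. Averaged over the 40 libraries, all 37 reached 10 counts or more, as did 17769 gene rows in all. The mice were male C57BL/6J animals, either heterozygous for Ins2-Akita, an insulin mutation that damages the pancreatic beta cell and causes diabetes, or wild type (WT) littermates. From 6 to 22 weeks of age they were gavaged daily with an ethanol vehicle (10% in water) or with MitoGamide, a mitochondria-targeted scavenger of dicarbonyls, at 10 mg/kg in that vehicle. Other mice are labelled as given a water vehicle or MitoQ, a mitochondria-targeted ubiquinone antioxidant, in water, and for these the route and dose were not given in the sources used here. The protocol attached to them gives the same ages of 6 and 22 weeks but describes only the ethanol and MitoGamide treatments. Each of the 8 groups held 5 mice, with 1 library per mouse, so p-values measure the spread between animals. The Akita allele is a coding change, so RNA levels do not check the genotype labels.

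In mitochondria, pyruvate enters through the pyruvate carrier and is turned into acetyl-CoA by pyruvate dehydrogenase, which kinases switch off by phosphorylation and phosphatases switch on again. The cycle then oxidises acetyl-CoA and passes electrons to the respiratory chain, while carriers and transaminases exchange its intermediates with the cytosol. The proximal tubule, which makes up most of the cortex, is rich in mitochondria and uses glutamine, lactate and fatty acids for fuel, ammonia production and gluconeogenesis.

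The promoters of Me1, Pdk3, Pdk1 and Pdk2 are shown because the malic enzyme and the kinase genes carry the main differences described here. Each window runs from 250 bases before to 50 bases after the transcript start of RefSeq (GRCm38.p6), 5′ to 3′ on the strand of the gene. The windows are chr9:86695865-86696164 (minus strand) for Me1, chrX:93832101-93832400 (minus strand) for Pdk3, chr2:71872974-71873273 (plus strand) for Pdk1 and chr11:95041322-95041621 (minus strand) for Pdk2. For genes with several listed starts the most upstream was used. Capitals mark matches, on either strand, to the core of the antioxidant response element (TGACNNNGC), to the core of the hypoxia response element (ACGTG or GCGTG) or to the E-box (CACGTG, which contains ACGTG).
Me1: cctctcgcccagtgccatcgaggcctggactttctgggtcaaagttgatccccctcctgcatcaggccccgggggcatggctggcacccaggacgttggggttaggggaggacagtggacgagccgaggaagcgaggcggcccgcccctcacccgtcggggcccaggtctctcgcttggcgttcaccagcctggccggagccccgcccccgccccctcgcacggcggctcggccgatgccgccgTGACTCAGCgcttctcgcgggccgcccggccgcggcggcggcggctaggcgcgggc
Pdk3: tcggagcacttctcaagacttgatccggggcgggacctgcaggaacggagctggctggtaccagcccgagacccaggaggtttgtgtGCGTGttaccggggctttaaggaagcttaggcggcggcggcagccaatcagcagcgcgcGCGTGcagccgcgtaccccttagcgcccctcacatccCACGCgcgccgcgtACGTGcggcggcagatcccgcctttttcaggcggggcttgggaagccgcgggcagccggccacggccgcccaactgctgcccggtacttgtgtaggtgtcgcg
Pdk1: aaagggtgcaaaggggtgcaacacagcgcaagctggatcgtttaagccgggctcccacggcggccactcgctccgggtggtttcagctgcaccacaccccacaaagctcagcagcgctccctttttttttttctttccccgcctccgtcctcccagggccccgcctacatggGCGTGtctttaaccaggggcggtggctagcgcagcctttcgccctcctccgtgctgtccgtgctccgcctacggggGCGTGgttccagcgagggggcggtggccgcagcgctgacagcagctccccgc
Pdk2: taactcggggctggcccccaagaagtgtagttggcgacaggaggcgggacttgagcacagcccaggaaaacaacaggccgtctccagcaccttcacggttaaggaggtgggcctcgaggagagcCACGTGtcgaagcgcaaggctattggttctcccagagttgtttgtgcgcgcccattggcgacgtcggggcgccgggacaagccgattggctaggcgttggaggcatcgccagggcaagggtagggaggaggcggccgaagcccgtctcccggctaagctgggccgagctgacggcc

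Me1 held the only match to the antioxidant element among these windows, starting 6 bases before the transcript start. Pdk3 held 4 matches to the hypoxia element, Pdk1 held 2, and Pdk2 held 1 E-box whose letters match the hypoxia element on both strands. Of 32851 promoter windows of this length in the table, 12.4% held the antioxidant core, 43.8% the hypoxia core and 7.15% the E-box. Of the 44 windows found for the 37 genes, which include several starts of some genes, 15.9%, 68.2% and 13.6% held them. The windows were not matched for base composition or expression, so these shares do not show an excess. The letters are a description of the sequence, and no binding was measured. Windows were found for 34 of the 37 genes.

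Levels are given as CPM, the usual depth-scaled count, computed with TMM factors over all 40 libraries. Library totals ranged from 9106654 to 24321424 counts. Because the libraries were made by depleting ribosomal RNA, the share of counts left on 3 ribosomal RNA rows was computed. Among these rows are mt-Rnr1 and mt-Rnr2, the ribosomal RNAs of the mitochondrial genome. The share can therefore move with mitochondrial RNA content as well as with depletion, which were not told apart. It was 15.2% to 27.4% in the 20 libraries of the ethanol arm (vehicle and MitoGamide) and 10.7% to 63.2% in the 20 libraries of the water arm (water and MitoQ). It exceeded 30% in 6 libraries, all of the water arm. The 37 genes summed to 6158 to 8513 CPM in the ethanol arm and to 2985 to 6988 CPM in the water arm. In the 6 libraries over 30% the sum was 2985 to 4886 CPM, against 4262 to 6988 CPM in the other 14 libraries of the water arm, so the ranges overlapped. On the water vehicle, marker genes of the distal convoluted tubule were high where this sum was low. They summed to 1480.3 to 1840.4 CPM in the 6 libraries where the 37 genes summed to 3073 to 4481 CPM, and to 677 to 1072 CPM in the 4 where the genes summed to 6129 to 6615 CPM. The proximal tubule markers summed to 9182 to 12513 CPM and 12735 to 15413 CPM in these libraries. With MitoQ the distal markers did not always follow this order. They were at 877 CPM in WT replicate 1, where the 37 genes summed to 4478 CPM. In WT replicate 4 they were at 1022 CPM, with a sum of 5451 CPM. The part of these markers in the sums was not tested. In addition, 1 WT water library (replicate 1) held 292 CPM of the liver gene Alb, against 1.98 to 31.2 CPM in the others.

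**Figure D1:**
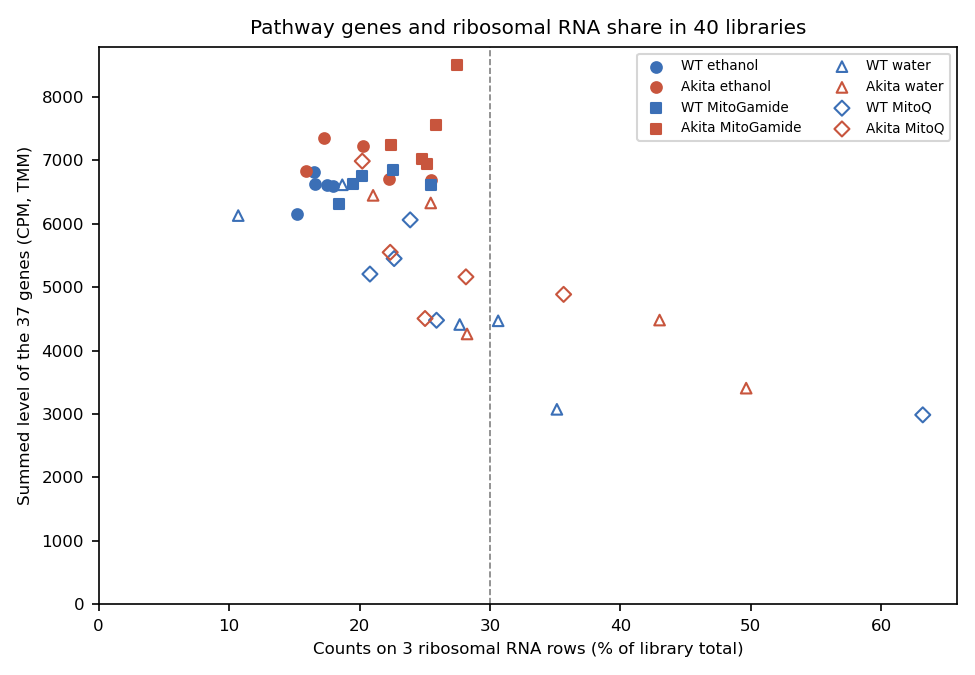
Summed level of the 37 genes (y axis, CPM scaled with TMM) against the share of counts on 3 ribosomal RNA rows (x axis, percent of the library total) in 40 libraries, with symbols by group and a dashed line at 30%. The 20 libraries of the ethanol arm sit together at 6158 to 8513 CPM, and the libraries of the water arm spread from 2985 to 6988 CPM.

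Per kilobase of the longest coding transcript, the most abundant of the 37 genes in WT mice on ethanol was Mdh1, the cytosolic malate dehydrogenase, with a median of 302 CPM per kb. It was followed by Idh1 at 157, Mpc1 at 149, Idh2 at 142 and Mdh2 at 135 CPM per kb. The least abundant were Pdk1 at 4.41, Me2 at 1.97 and Pdp1 at 0.819 CPM per kb. Pdp1 had 10 to 119 counts per library and Me2 had 12 to 172, whereas Mdh1 had 1341 to 16039. A pseudogene row with the name of a member was present for Mpc1 (Mpc1-ps, median 25 counts against 2075 for Mpc1) and for Got2 (Got2-ps1, median 2.50 against 3402), so a small part of their reads may have been shared.

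The first comparison asked how diabetes changed these genes in mice given the ethanol vehicle. Of the 37 genes, 6 were higher and 2 were lower in Akita than in WT cortex at an adjusted p under 0.05 (edgeR quasi-likelihood test, Benjamini-Hochberg over 17747 genes). Among all genes tested 16.4% passed, and 8 of 37 is 21.6%. With 10 counts required in every library, 19.0% of all genes passed and again 21.6% of the 37. The 8 called genes were Pdk1, Pdk2 and Pdk3, kinases of pyruvate dehydrogenase, and Me1, Glud1, Aco1, Got1 and Got2, enzymes around the cycle. The genes encoding the pyruvate carrier, the pyruvate dehydrogenase subunits and the mitochondrial enzymes of the cycle itself gave no call in these 10 mice, and whether the roles differed was not tested. The median log2 fold change of the 37 genes was 0.08, with 28 above 0, against -0.0021 over all genes tested. The 2 groups of 5 did not overlap for 7 of the 37 genes, and for 13.0% of all genes tested. The share of ribosomal RNA was 15.2% to 17.99% in these WT mice and 15.9% to 25.5% in these Akita mice, and its part was not tested.

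Among the 37 genes, the kinase genes that regulate pyruvate dehydrogenase changed, and not in the same direction. Pdk1, Pdk2 and Pdk3 encode these kinases, which inactivate the complex. Pdk4, the remaining kinase of the family, is outside the 37 and is described further below. For Pdk1 (chr2:71873224-71903858, GRCm38) the levels were 20.8, 27.1, 23.4, 21.3 and 22.9 CPM in the WT mice and 40.5, 42.9, 46.3, 37.7 and 37.6 CPM in the Akita mice. Every Akita mouse was above every WT mouse. The log2 fold change was 0.84 (SE 0.09, edgeR adjusted p = 4.78e-05), a 1.79-fold increase.

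Pdk2 (chr11:95026258-95041354), the kinase with the highest level per kb of the trio, was at 122, 104, 163, 148 and 114 CPM in WT mice. In Akita mice it was at 205, 207, 214, 181 and 172 CPM. The groups did not overlap, with WT replicate 3 closest to the Akita range. The log2 fold change was 0.61 (SE 0.11, edgeR adjusted p = 0.00282).

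Pdk3 (chrX:93764607-93832201) went the other way. It was at 42.3, 32.5, 34.0, 37.1 and 30.3 CPM in WT mice and at 23.8, 21.2, 19.3, 22.2 and 25.2 CPM in Akita mice. All Akita values lay below all WT values, with a log2 fold change of -0.64 (SE 0.10, edgeR adjusted p = 0.000620). Per kb, the order of the trio was the same in both genotypes. In WT mice the medians were 54.4 for Pdk2, 16.1 for Pdk3 and 4.41 for Pdk1, and in Akita mice they were 91.4, 10.5 and 7.81 CPM per kb. The phosphatase genes Pdp1 (log2 fold change 0.22, SE 0.15, adjusted p = 0.360) and Pdp2 (-0.05, SE 0.12, adjusted p = 0.814) did not pass.

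Among the cytosolic enzymes, Me1 (chr9:86581371-86695953) showed the smallest adjusted p of the 37 genes. It encodes the malic enzyme that oxidises malate to pyruvate and makes NADPH. Its levels were 421, 365, 400.3, 406 and 338 CPM in WT mice and 217, 192, 195, 196 and 223 CPM in Akita mice. The Akita values lay in a narrow band far below the WT values. The log2 fold change was -0.90 (SE 0.08, edgeR adjusted p = 1.21e-05), which is 0.537 times the WT level. Aco1, the cytosolic aconitase that also acts as an iron regulatory protein, rose by 0.22 on the log2 scale (SE 0.07, adjusted p = 0.0443). Got1, the cytosolic aspartate aminotransferase, rose by 0.29 (SE 0.09, adjusted p = 0.04996), although its groups overlapped. Idh1, which makes NADPH from isocitrate, had a log2 fold change of 0.18 (adjusted p = 0.275), Mdh1 of 0.10 (adjusted p = 0.413) and Acly, the ATP citrate lyase that supplies acetyl-CoA for lipid synthesis, of 0.01 (adjusted p = 0.950).

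Glutamate dehydrogenase, Glud1 (chr14:34310727-34345265), which releases ammonium from glutamate and forms oxoglutarate, was at 357, 330.3, 324, 324 and 361 CPM in WT mice. In Akita mice it was at 468, 465, 548, 720.0 and 413 CPM. All Akita values were higher, with replicate 4 the highest. The log2 fold change was 0.64 (SE 0.12, edgeR adjusted p = 0.00302). Got2, the mitochondrial aspartate aminotransferase, rose from a mean of 202 ± 11.7 CPM to 236 ± 19.2 CPM (SD, n = 5 each), a log2 fold change of 0.24 (SE 0.07, edgeR adjusted p = 0.0313). The mitochondrial malic enzyme Me2 was at 5.62 ± 1.37 CPM in WT and 7.41 ± 0.596 CPM in Akita mice (SD, n = 5 each), and its log2 fold change of 0.41 did not pass (edgeR adjusted p = 0.0731). Me3, the NADP-dependent malic enzyme of mitochondria, was at 0.03 (adjusted p = 0.814).

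Among the remaining roles no gene passed. The subunits of the pyruvate dehydrogenase complex (Pdha1, Pdhb, Dlat, Dld and Pdhx) ranged from -0.05 to 0.08. Pdha1, the catalytic alpha subunit, was at 0.00 with a 95% interval of -0.12 to 0.12. The genes from citrate synthase to oxoglutarate (Cs, Idh2, Idh3a, Idh3b and Idh3g) ranged from -0.13 to 0.14. Cs, which condenses acetyl-CoA with oxaloacetate, was at 0.14 (SE 0.07, adjusted p = 0.197). The genes from oxoglutarate to oxaloacetate (Ogdh, Dlst, Sucla2, Suclg1, Suclg2, Fh1 and Mdh2) ranged from -0.12 to 0.17. Of these, Ogdh and Dlst, subunits of the oxoglutarate dehydrogenase complex, were at 0.17 each with adjusted p of 0.139 and 0.140. The pyruvate carrier subunits were at -0.08 for Mpc1 and 0.16 for Mpc2. The carriers of citrate (Slc25a1), dicarboxylates (Slc25a10) and oxoglutarate (Slc25a11) were at 0.09, 0.33 and 0.12, with adjusted p of 0.435, 0.0989 and 0.179. The estimate for Slc25a10 (SE 0.13) was larger than those of the called genes Aco1, Got1 and Got2.

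Me1, Pdk1, Pdk2, Pdk3 and Glud1 kept their call in all 10 fits that left out 1 library. Got2 kept it in 5, and Aco1 and Got1 in 2 each. The number of calls fell to 5 without Akita replicate 1, Akita replicate 2, WT replicate 4 or WT replicate 5. In these 4 fits 12.2% to 14.2% of all genes passed, and 13.5% of the 37. With all 40 libraries in 1 fit, Me1, Pdk1 and Pdk2 passed. Glud1 at 0.62 (SE 0.26, edgeR adjusted p = 0.191) and Pdk3 at -0.66 (SE 0.29, edgeR adjusted p = 0.243) did not, although their estimates were about as large. Neither did Aco1, Got1 or Got2.

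**Figure D2:**
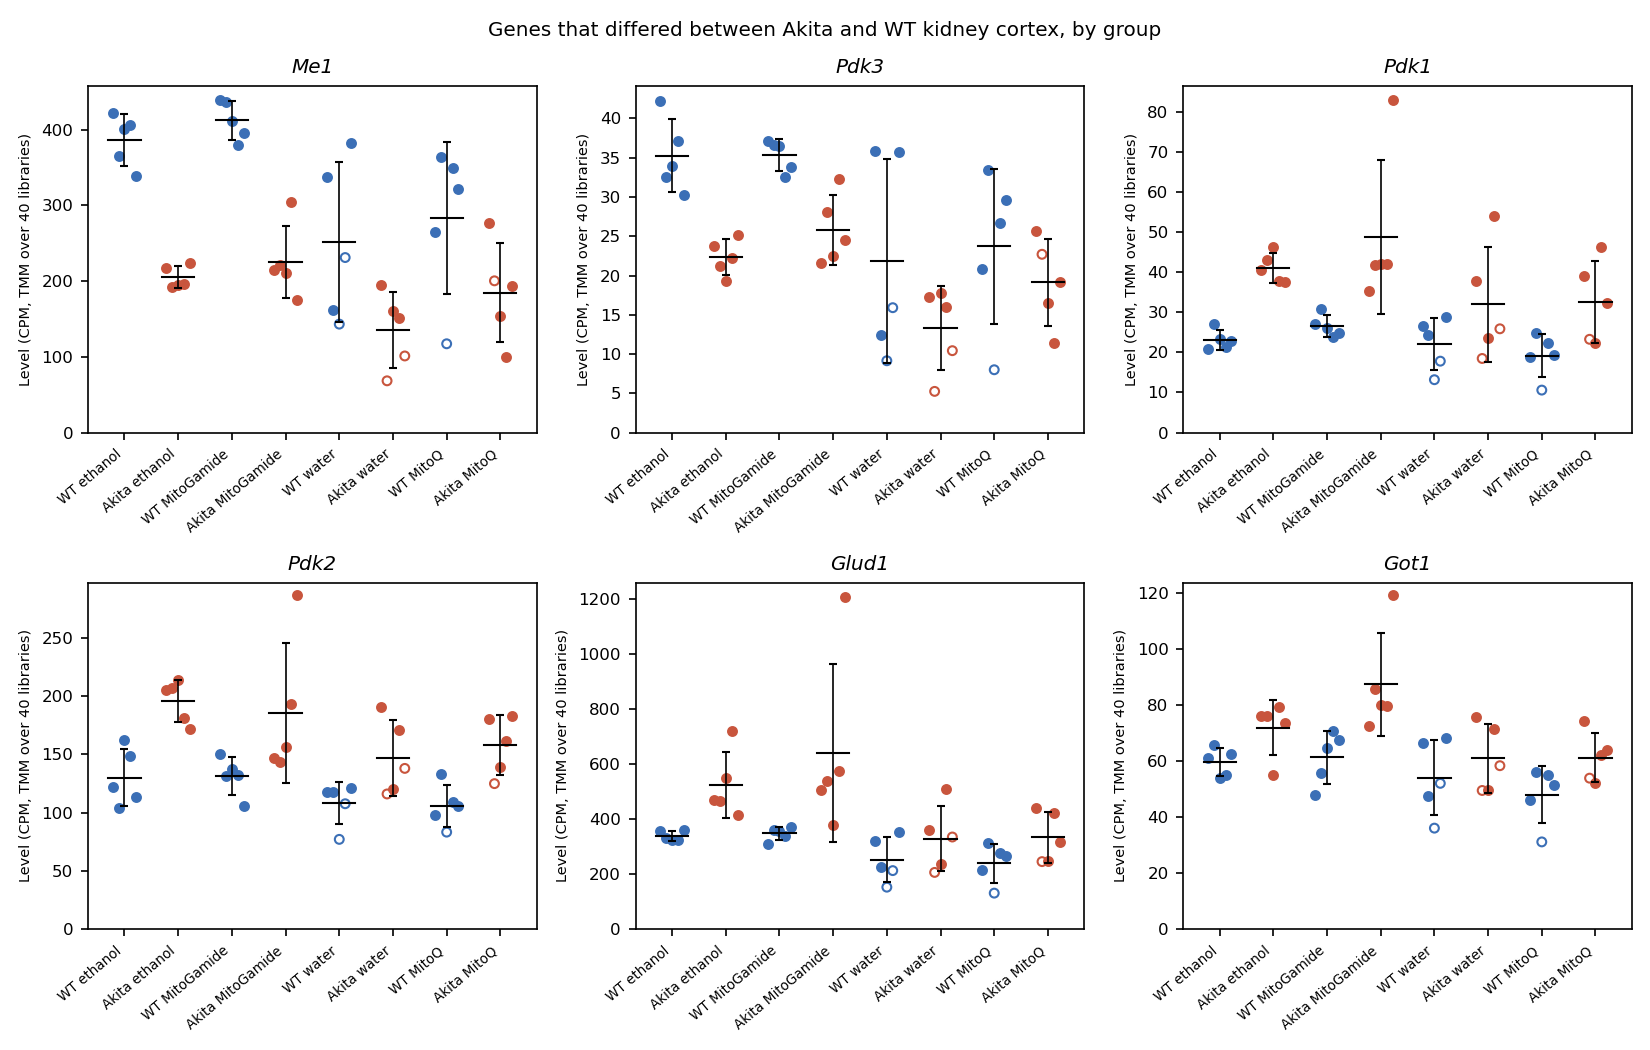
Level of Me1, Pdk3, Pdk1, Pdk2, Glud1 and Got1 (y axes, CPM scaled with TMM, from 0) in each of 40 mice by group, with WT in blue and Akita in red, bars at the mean and SD of 5 mice, and open circles for the 6 libraries with over 30% of counts on ribosomal RNA rows. On ethanol, Me1 and Pdk3 are lower and Pdk1, Pdk2 and Glud1 are higher in Akita mice without overlap. Replicate 5 of the MitoGamide-treated Akita mice stands high for Pdk1, Pdk2, Glud1 and Got1.

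The same contrast was made between Akita and WT mice that all received MitoGamide, which shares no library with the vehicle comparison. Here 13 of the 37 genes were higher and 2 were lower in Akita mice (edgeR, adjusted p under 0.05), or 40.5% of the 37. Among all 16674 genes tested 14.3% passed. The median log2 fold change was 0.21, with 33 of 37 above 0, and the median over all genes tested was 0.01. The groups did not overlap for 11 of the 37 genes and for 12.4% of all genes tested. Ribosomal RNA took 18.4% to 25.5% of counts in these WT mice and 22.4% to 27.4% in these Akita mice, and its part was not tested. Of the 8 genes called on the vehicle, 7 (87.5%) were called here as well, and these are 46.7% of the 15. Over all genes 1279 were called in both, which are 44.0% of the 2910 called on the vehicle and 53.6% of the 2386 called with MitoGamide. Whether the 37 genes differ from all genes in this was not tested.

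Me1 was at 439, 437, 411, 379 and 395 CPM in WT mice and at 214, 221, 211, 304 and 176 CPM in Akita mice given MitoGamide. The groups again did not overlap, with a log2 fold change of -0.84 (SE 0.13, edgeR adjusted p = 0.00260). Pdk1 rose by 0.91 (SE 0.19, adjusted p = 0.0117) and Pdk3 was lower, at -0.42 (SE 0.11, adjusted p = 0.0300). Pdk2 was at 0.53 (SE 0.17) and did not pass (adjusted p = 0.0601). Pdp1, a phosphatase that activates the complex, rose by 0.87 (SE 0.25, adjusted p = 0.0397). It was at 2.96, 5.57, 5.24, 5.42 and 9.85 CPM in Akita mice against 2.79 to 3.63 CPM in WT mice, so replicate 1 of the Akita mice lay within the WT range.

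Around the cycle, Glud1 rose by 0.91 (SE 0.24, adjusted p = 0.0288), Me2 by 0.77 (SE 0.19, adjusted p = 0.0198), Got1 by 0.54 (SE 0.14, adjusted p = 0.0254) and Got2 by 0.34 (SE 0.09, adjusted p = 0.0319). Slc25a10, the dicarboxylate carrier, was at 173, 186, 192, 207 and 160.3 CPM in WT mice and at 217, 257, 207, 248 and 238 CPM in Akita mice. Its groups met at 207 CPM without crossing, with a log2 fold change of 0.38 (SE 0.09, edgeR adjusted p = 0.0195). Slc25a11, the oxoglutarate carrier, rose by 0.23 (adjusted p = 0.0380), Aco1 by 0.27 (adjusted p = 0.0373) and Idh1 by 0.32 (adjusted p = 0.0456).

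In this comparison genes of the cycle and of the complex also passed, with small changes. Suclg1, the shared alpha subunit of succinyl-CoA ligase, rose by 0.27 (SE 0.07, adjusted p = 0.0270). Pdhx, which anchors the dihydrolipoamide dehydrogenase subunit in the complex, rose by 0.25 (SE 0.07, adjusted p = 0.0411), and Cs rose by 0.23 (SE 0.07, adjusted p = 0.0493). Among the alternative settings that left out no library, Cs kept its call only with DESeq2 (adjusted p = 0.00864). Pdhx lost its call with no count filter, with pairing by replicate number and with all 40 libraries in 1 fit. Suclg1 lost its call with no count filter and with all 40 libraries. All 5 subunits of the complex, all 5 genes from citrate synthase to oxoglutarate and all 7 from oxoglutarate to oxaloacetate had fold changes above 0, from 0.02 for Dld to 0.31 for Fh1, which was at 0.17 (SE 0.07) without Akita replicate 5. Dld was at -0.01 with all 40 libraries in 1 fit and at -0.0015 with 10 counts required in every library, where 16 of the 17 were above 0. Apart from Pdhx, Cs and Suclg1, these 17 genes did not pass.

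The MitoGamide-treated Akita mice held 1 animal, replicate 5, with high values. Pdk1 was at 82.8 CPM there against 35.3 to 42.2 CPM in the other 4, Glud1 at 1205 against 379 to 574 CPM and Got1 at 119 against 72.4 to 85.8 CPM. This animal was the highest of its group for 17 of the 37 genes and replicate 4 for 12, against 35.0% and 17.0% of all genes, and replicates 1, 2 and 3 were the highest for 2, 3 and 3. It also stood apart in marker genes of other cells. Its 4 liver markers summed to 419 CPM against 17.1 to 30.5 CPM in the other 4, of which the fibrinogen gene Fga gave 410.2 CPM and Alb 5.46 CPM, and its 4 podocyte markers summed to 409 CPM against 203 to 265 CPM. Its 4 intercalated cell markers summed to 169.9 CPM against 104 to 127 CPM and its 3 distal convoluted tubule markers to 1025 CPM against 653 to 778 CPM. Its proximal tubule sum, 11048 CPM, was the lowest of the group (11311 to 13638 CPM in the others), and its principal cell and endothelial sums were the highest. The part of these markers in its high values was not tested. Without it, 17 of the 37 genes passed, Glud1 was at 0.56, Pdk1 at 0.64 and Pdk2 at 0.32 (SE 0.11, edgeR adjusted p = 0.0644). Without WT replicate 1, 2, 3 or 4 the number of calls fell to 3, 4, 5 or 6, and without Akita replicate 2, 3 or 4 it fell to 5, 8 or 8. Over all genes the calls moved as well, from 2386 to 1368, 1248, 1451 and 1388 without those WT mice, to 1404, 1717 and 1963 without those Akita mice, and to 2822 without Akita replicate 5. Me1 and Pdk1 kept their call in all 10 of these fits, Slc25a10 in 9, Me2 in 8 and Got1 in 7, while Glud1 and Pdk3 kept it in 6. The other 8 genes kept it in 2 to 4.

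**Figure D3:**
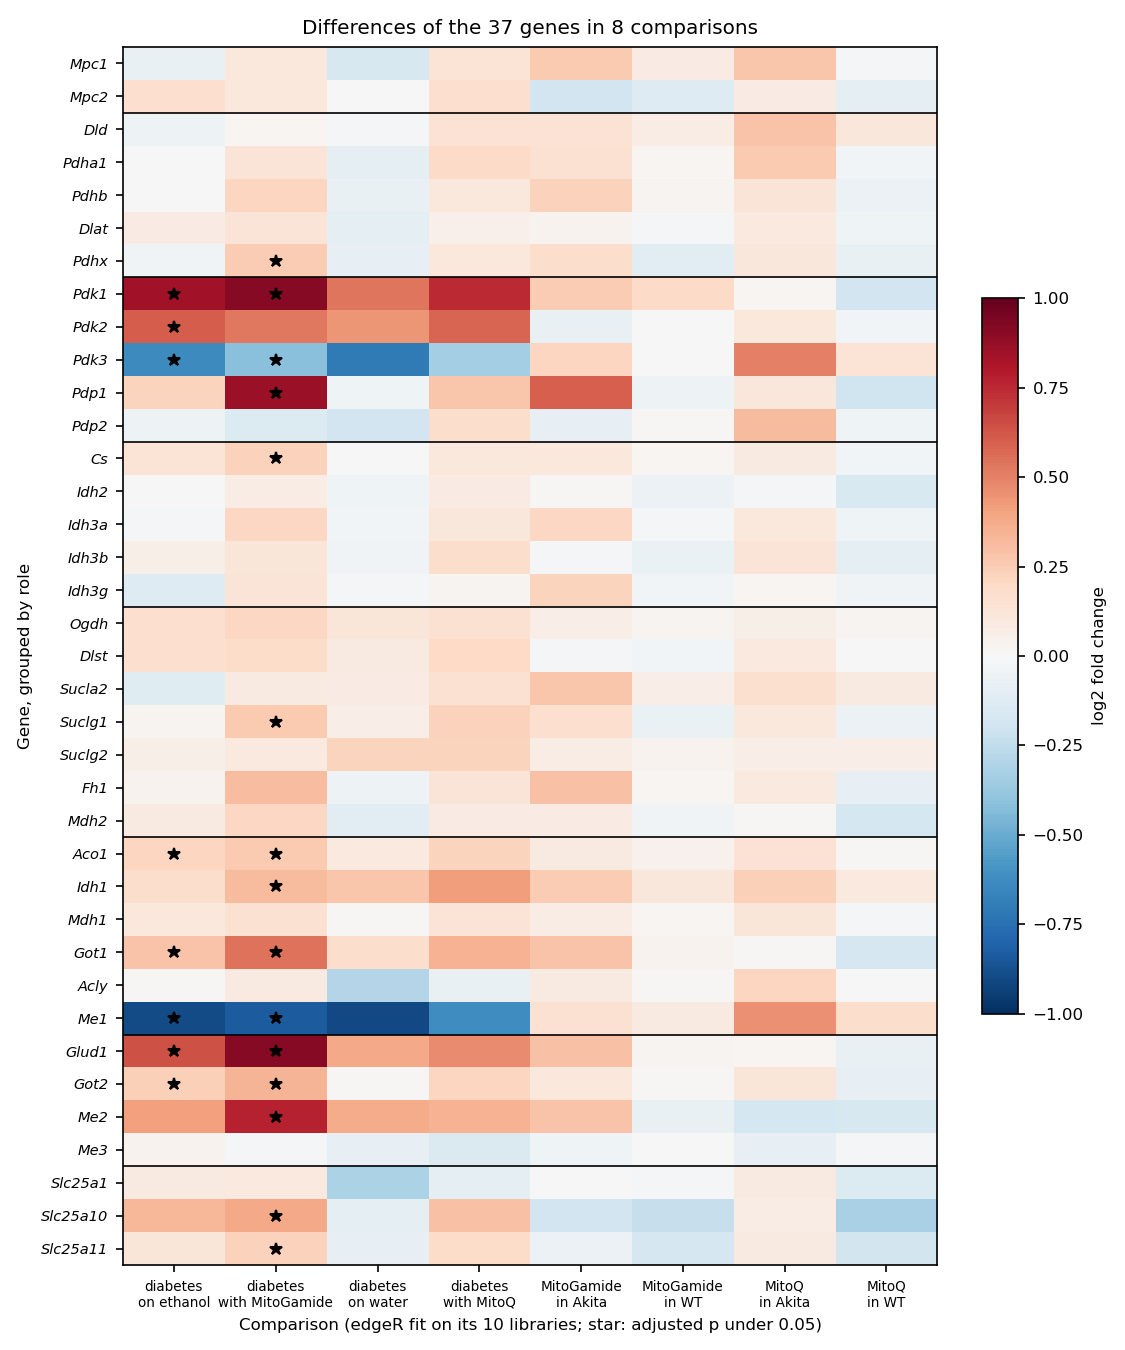
Log2 fold changes (colour, red higher and blue lower in the first-named condition) of the 37 genes, in rows grouped by role, in 8 comparisons of 5 against 5 mice, in columns. Stars mark an adjusted p under 0.05 and stand in the columns of diabetes on ethanol (8) and with MitoGamide (15) only. Me1 and Pdk3 are blue and Pdk1, Pdk2, Glud1 and Me2 are red in all 4 diabetes columns.

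In neither comparison of 5 Akita with 5 WT mice within the water arm did a gene of the 37 pass. On the water vehicle edgeR called 0 of 37 genes, 2 had an unadjusted p under 0.05, and DESeq2 also called 0. Among all genes tested 0.552% passed with edgeR and 1.93% with DESeq2, and 7.56% had an unadjusted p under 0.05. The errors were wide, with a median SE of 0.27 over the 37 genes against 0.07 on ethanol. Me1 was at 338, 162, 143, 231 and 382 CPM in WT mice and at 195, 68.3, 159.9, 151 and 101 CPM in Akita mice. The groups overlapped, and WT replicates 3 and 4 and Akita replicates 2 and 5 are the libraries over 30% ribosomal RNA. Its log2 fold change was -0.90 (SE 0.34, edgeR adjusted p = 0.478). Pdk2 was at 0.44 (SE 0.19, adjusted p = 0.599), Pdk1 at 0.54 (SE 0.30, adjusted p = 0.835) and Pdk3 at -0.70 (SE 0.43, adjusted p = 0.874). Without those 4 libraries, an alternative chosen after seeing the data, Me1 was at -0.81 (SE 0.33), Pdk1 at 0.54 (SE 0.29), Pdk3 at -0.73 (SE 0.36) and Pdk2 at 0.43 (SE 0.22), and again 0 passed. In that fit 0.0217% of all genes passed, so a count of 0 among 37 says little about them.

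Between Akita and WT mice given MitoQ, edgeR called 0 of 37 genes, 2 had an unadjusted p under 0.05 (9.06% of all genes did), and 0.557% of all genes passed. The share that passed was 1.47% without WT MitoQ replicate 3, the library with 63.2% ribosomal RNA, 0.193% without Akita MitoQ replicate 5, and 2.29% with DESeq2. Pdk2 was at 97.7, 133, 83.3, 109 and 106 CPM in WT mice and at 181, 125, 139.5, 161 and 183 CPM in Akita mice. The ranges overlapped only through WT replicate 2 and Akita replicate 2. Its log2 fold change was 0.58 (SE 0.16, edgeR adjusted p = 0.161), and DESeq2 called it (adjusted p = 0.0248). Pdk1 was at 0.75 (SE 0.24, adjusted p = 0.274) and Me1 at -0.62 (SE 0.32, adjusted p = 0.634).

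The difference of the diabetes effect between the ethanol and water vehicles was tested as an interaction over 20 libraries. It called 0 of the 37 genes (0 with an unadjusted p under 0.05, 0 with DESeq2) and 0.00% of all genes, of which 4.25% had an unadjusted p under 0.05 and 2 genes passed with DESeq2. For Pdk1 the effect on ethanol exceeded that on water by 0.30, with a 95% interval of -0.35 to 0.96. For Slc25a10, with the smallest p of the 37 genes, the difference was 0.43 (interval -0.02 to 0.87, adjusted p = 1.00). These intervals are wide, and an equal effect in both vehicles was not shown.

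Over all 40 mice, with the treatment arm as a covariate, 7 of the 37 genes were higher and 2 lower in Akita mice, or 24.3%, and 22.8% of all 17769 genes passed (edgeR). Me1 was at -0.82 (SE 0.13, adjusted p = 3.80e-06), Pdk2 at 0.53 (SE 0.08, adjusted p = 4.30e-06) and Pdk1 at 0.75 (SE 0.12, adjusted p = 5.14e-06). Glud1 was at 0.59 (SE 0.13, adjusted p = 0.000483), Me2 at 0.47 (SE 0.11, adjusted p = 0.000784), Got1 at 0.33 (SE 0.08, adjusted p = 0.00232) and Pdk3 at -0.53 (SE 0.14, adjusted p = 0.00513). Got2 at 0.19 (adjusted p = 0.0252) and Slc25a10 at 0.22 (adjusted p = 0.0357) completed the list. The 28 genes without a call ranged from -0.08 to 0.33, with Pdp1 and Idh1 (0.29, adjusted p = 0.0550) at the upper end.

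Within the arms, the 20 mice of the ethanol arm gave 19 calls and the 20 mice of the water arm gave 1, Pdk2, at 0.51 (SE 0.12, edgeR adjusted p = 0.0163). These are 51.4% and 2.70% of the 37, and in the same fits 31.2% and 4.31% of all genes passed. The 19 included genes of the cycle and the pyruvate carrier that gave no call in the ethanol vehicle mice alone. These were Cs at 0.19, Ogdh at 0.19, Dlst at 0.18, Suclg1 at 0.15, Mdh2 at 0.15 and Mpc2 at 0.14, with edgeR adjusted p from 0.00324 to 0.0387. The other 8 genes called over 40 mice did not pass in the water arm, whose 20 mice are part of the 40. Their estimates there ran from Me1 at -0.76 (SE 0.24) and Pdk1 at 0.64 (SE 0.20) to Got2 at 0.11 (SE 0.12) and Slc25a10 at 0.10 (SE 0.13). On the water vehicle alone Slc25a10 was at -0.09 (SE 0.17). Without the 6 libraries over 30% ribosomal RNA 14 genes passed (37.8%), against 26.5% of all genes. The additional ones were Dlst, Ogdh, Idh1, Aco1 and Pdp1, at 0.15 to 0.37. Leaving out Akita water replicate 2 alone also gave 14 calls, with 23.6% of all genes.

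**Figure D4:**
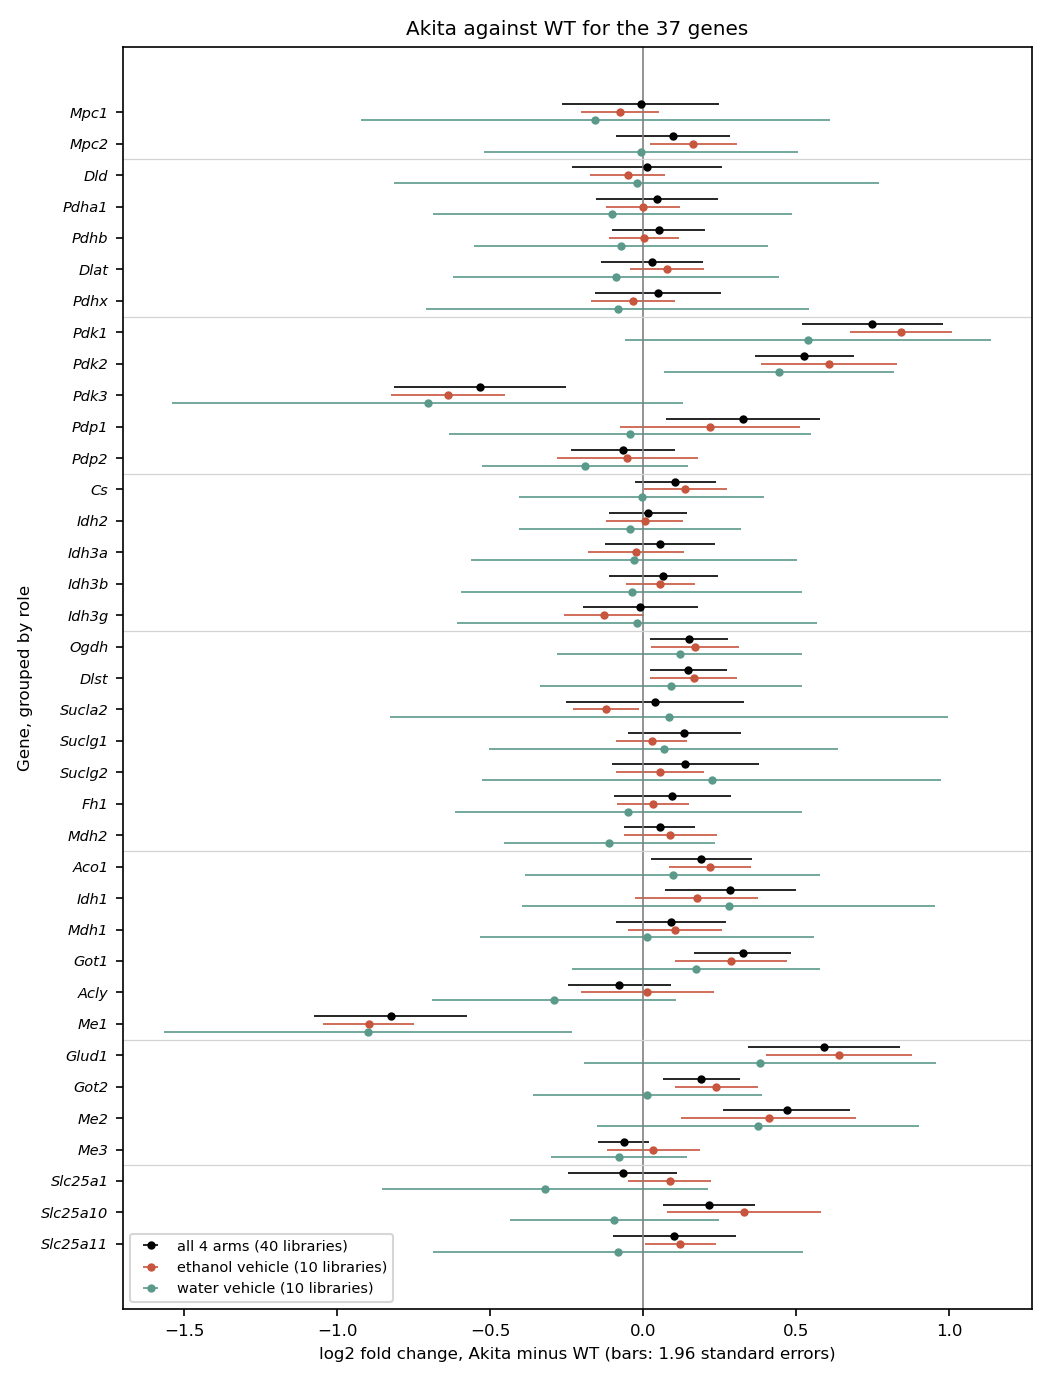
Log2 fold change between Akita and WT mice (x axis, bars of the 95% interval) for the 37 genes (y axis, grouped by role) over all 4 arms (black, 40 libraries), on ethanol (red, 10 libraries) and on water (green, 10 libraries). The intervals of Me1, Pdk1, Pdk2, Pdk3 and Glud1 lie away from 0 on ethanol and over all arms, and the intervals on water are wider, with a median SE of 0.27 against 0.07 over the 37 genes and of 0.19 against 0.11 for Pdk2.

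The treatments were then compared with their own vehicles. These comparisons reuse the libraries of the diabetes comparisons, so their values stand side by side and are not independent. In Akita mice, MitoGamide against ethanol called 0 of the 37 genes with edgeR, while 1.26% of all genes passed. At an unadjusted p under 0.05 there were 10 of the 37 (27.0%), against 20.9% of all genes. The median log2 fold change was 0.11, with 28 of 37 above 0, against -0.0021 over all genes, of which 49.6% were above 0. The share of ribosomal RNA differed as well, at 15.9% to 25.5% on ethanol and 22.4% to 27.4% with MitoGamide in these Akita mice, and 15.2% to 17.99% and 18.4% to 25.5% in the WT mice, and its part was not tested. Sucla2, the subunit of the ATP-forming succinyl-CoA ligase, had the smallest p. It was at 117, 114, 108, 108 and 106 CPM on ethanol and at 133, 121, 135, 134 and 143 CPM with MitoGamide, without overlap. Its log2 fold change was 0.27 (SE 0.06, edgeR adjusted p = 0.0566), and DESeq2 called it (adjusted p = 0.000780). Mpc1 was at 0.26 (adjusted p = 0.117), Pdhb at 0.23 (adjusted p = 0.117) and Fh1, the fumarase, at 0.29 (adjusted p = 0.160), or 0.17 (SE 0.05) without MitoGamide replicate 5. Mpc2, the partner of Mpc1 in the pyruvate carrier, was at -0.19 (adjusted p = 0.160). The genes that diabetes changed had estimates of 0.25 (SE 0.19) for Pdk1, -0.08 (SE 0.17) for Pdk2, 0.22 (SE 0.12) for Pdk3, 0.15 (SE 0.13) for Me1 and 0.29 (SE 0.26) for Glud1, none of which passed. Without MitoGamide replicate 5 these were at -0.0032 for Pdk1, -0.27 (SE 0.10) for Pdk2, 0.24 for Pdk3, 0.23 for Me1 and -0.05 for Glud1, and none passed. The count over all genes, 214, varied with the tool and with single libraries. DESeq2 called 1069 genes, or 6.27%. In edgeR the count was 802 without Akita MitoGamide replicate 5, where Sucla2 passed as the 1 of the 37 (0.26, SE 0.06, adjusted p = 0.0351), and 0 without Akita ethanol replicate 1 or 2. The 4 endothelial markers summed to 247 to 300.4 CPM on ethanol and 311 to 460 CPM with MitoGamide, without overlap, and 0 of the 4 passed (Pecam1 at 0.62, adjusted p = 0.0544). Their part in the estimates for the 37 genes was not tested.

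In WT mice MitoGamide called 0 of 37 genes (edgeR, 1 with an unadjusted p under 0.05, 0 with DESeq2) and 0.00% of all genes with edgeR. DESeq2 called 74 of all genes (0.425%), and 10.6% of all genes had an unadjusted p under 0.05 with edgeR. The gene with the small p was Slc25a11, at -0.17 (SE 0.05, adjusted p = 0.327), with a median log2 fold change of 0.01 over the 37 genes. An interaction test of MitoGamide by genotype called 0 of 37 (5, or 13.5%, with an unadjusted p under 0.05, 0 with DESeq2) and 0.00% of all genes, of which 8.32% had an unadjusted p under 0.05. Pdhx had the smallest p, with an effect 0.28 higher in Akita mice (95% interval 0.09 to 0.46, adjusted p = 0.571).

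MitoQ called 0 of 37 genes against water in Akita mice and 0 in WT mice (edgeR, 0 with an unadjusted p under 0.05 in either, 0 with DESeq2), with 0.00% of all genes in each. The shares of all genes with an unadjusted p under 0.05 were 1.963% in Akita and 3.22% in WT mice, and DESeq2 called 0 and 2 of all genes. In Akita mice the estimates for Me1 and Pdk3 were 0.46 (95% interval -0.14 to 1.05) and 0.50 (interval -0.09 to 1.09). Without the Akita libraries over 30% ribosomal RNA they were 0.11 (SE 0.31) and 0.11 (SE 0.24). In WT mice Slc25a10 was at -0.32 (interval -0.66 to 0.02). The difference of the MitoQ effect between genotypes also called 0 of 37 (0 with an unadjusted p under 0.05, 0 with DESeq2) and 0.00% of all genes, of which 1.14% had an unadjusted p under 0.05.

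Other genes of the same pathway were counted from a list of 36, which included succinate dehydrogenase, further carriers, transaminases and gluconeogenic enzymes. The list was chosen with earlier results of these data known. Its shares of calls, here and below, are therefore a description and not a test of an excess over all genes. On ethanol 9 of the 36 were higher and 3 lower in Akita mice, or 33.3% of the list, against 16.4% of all genes. Gpt and Gpt2, the alanine aminotransferases that link pyruvate to glutamate, rose by 0.93 (adjusted p = 0.000143) and 0.61 (adjusted p = 0.000419), and Slc13a2, the apical citrate and dicarboxylate transporter of the tubule, rose by 1.06 (adjusted p = 0.00242). Slc25a12, an aspartate and glutamate carrier, rose by 0.38 (adjusted p = 0.00175). Slc25a21, the carrier of oxodicarboxylates, and Glyctk, glycerate kinase, were lower, at -0.51 (adjusted p = 0.00141) and -0.56 (adjusted p = 0.00273).

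With MitoGamide 10 of the 36 were higher and 3 lower in Akita mice, or 36.1%, against 14.3% of all genes. They included Gpt at 0.83 (adjusted p = 0.00514), Pck1, the cytosolic phosphoenolpyruvate carboxykinase of gluconeogenesis, at 2.82 times the WT level (adjusted p = 0.00692), Slc25a12 at 0.56 (adjusted p = 0.00916), Slc13a2 at 0.89 (adjusted p = 0.0168) and Adhfe1, a transhydrogenase of hydroxy acids and oxo acids, at -0.37 (adjusted p = 0.0156). Over all arms 11 were higher and 5 lower, or 44.4%, against 22.8% of all genes. Gpt was at 0.70 (adjusted p = 3.51e-08), Pck1 at 1.15 (adjusted p = 2.22e-06), Slc13a2 at 0.77 (adjusted p = 3.17e-05), Gpt2 at 0.56 (adjusted p = 0.0001145), Slc25a21 at -0.57 (adjusted p = 2.69e-07) and Glyctk at -0.67 (adjusted p = 1.53e-06). Pdk4, the remaining kinase of the family, named after its values were seen, was at 1.05 over all arms (SE 0.35, adjusted p = 0.0252). Its level varied widely between mice of a group, from 13.9 to 314 CPM in the MitoGamide-treated Akita mice, where replicate 5 was again the highest. On water 1 of the 36 passed, Glyctk at -0.84 (adjusted p = 0.0405), against 0.552% of all genes. With MitoGamide in Akita mice 1 passed, Slc25a18, a glutamate carrier, at -1.19 (adjusted p = 0.0438), against 1.26% of all genes, and no gene passed there without Akita ethanol replicate 1 or 2.

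Marker genes of kidney cell types were compared between Akita and WT mice in the same way. The 11 proximal tubule markers summed to 14223 to 18231 CPM in WT and 11457 to 15296 CPM in Akita mice on ethanol. Of the 11, 2 were lower (18.2%, near the 16.4% of all genes that passed), Slc7a13 at -1.58 and the endocytic receptor Lrp2 at -0.47, and 5 had a fold change above 0. The 4 principal cell markers summed to 105 to 144 CPM in WT and 133 to 201 CPM in Akita mice. The 5 macrophage and leukocyte markers summed to 54.1 to 77.4 CPM in WT and 36.0 to 47.0 CPM in Akita mice. With MitoGamide the proximal tubule sum was 15090.0 to 16989 CPM in WT and 11048 to 13638 CPM in Akita mice, and the principal cell sum was 82.0 to 119 CPM and 139 to 243 CPM, both without overlap. There 3 of the 11 proximal tubule markers were lower and 3 of the 4 principal cell markers higher, with the water channel Aqp2 at 1.61, and 14.3% of all genes passed. The macrophage and leukocyte sums overlapped, at 49.2 to 87.0 CPM and 38.3 to 52.6 CPM. In the water arm the macrophage and leukocyte sums did not overlap, at 52.9 to 64.2 CPM in WT and 34.3 to 42.3 CPM in Akita mice on water and at 51.0 to 71.6 CPM and 32.1 to 43.3 CPM with MitoQ. The principal cell sums there were 117 to 169 CPM and 159 to 247 CPM on water, and 78.3 to 127 CPM and 145 to 186 CPM with MitoQ, without overlap in the latter. The proximal tubule sums overlapped in both. Among the other cell types no sum was without overlap between Akita and WT mice in any of the 4 arms. On ethanol the distal convoluted tubule sum was 490.1 to 897 CPM in WT and 821 to 965 CPM in Akita mice, and the podocyte sum was 168 to 222 CPM and 205 to 261 CPM, with 1 of 3 and 2 of 4 markers called higher. On water the thick ascending limb sum was 1319 to 2856 CPM and 1016 to 1454 CPM, with 0 of 4 called, where 0.552% of all genes passed. The part of these differences in the results for the 37 genes was not tested, and in whole tissue fewer cells of a type and less RNA per cell cannot be told apart. No adipocyte or skeletal muscle marker reached a mean of 10 counts.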

How the data were processed

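RNA of the renal cortex of 40 mice, 5 in each of 8 groups, was sequenced after ribosomal RNA depletion. Per the labels and the study's methods, the authors used Skewer for trimming, kallisto 0.46.1 for quantification against GENCODE mouse release 25 transcripts (GRCm38), and R 4.0.2 to sum to genes. The deposited table holds estimated counts, unscaled and unpooled. All were whole, so rounding changed 0 of them. Groups came from the sample titles. Transcript lengths and positions came from GENCODE release 21.

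Each comparison was fitted in R 4.3.3 with edgeR 4.0.16 (TMM, quasi-likelihood test) on its own libraries, keeping genes that averaged 10 counts or more. Benjamini-Hochberg adjustment ran over all genes tested, and an adjusted p under 0.05 was a call. Levels and SDs are CPM, and 95% intervals are 1.96 SE. These intervals are approximate and somewhat narrow for so few mice, so they can exclude 0 where the unadjusted p is above 0.05. Over 12 comparisons, called genes were named in full, at most 12 of the 37 by smallest p and at most 6 of another list. The other genes of the 37 were given by role, and those of them described singly, such as Pdp1, Sucla2, Pdhx, Cs and Idh1, were chosen after their values were seen. Marker genes and other pathway genes came from lists. The members and lists were chosen with earlier results of these data known. Alternatives were DESeq2 1.42.0, RLE scaling, other count filters, a replicate block, all 40 libraries in 1 fit and leaving out each library. The fits were tested on simulated data with the same dispersion for every gene and no libraries that stand apart. That test does not cover the wide spread of the water arm. Nnt was left out because its symbol occurs in 2 rows. Of the other pathway list, called genes beyond those named are counted only, and 1 that the rule would name is not reported here.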

Additional observations from a re-analysis of the deposited data

Results flagged for a closer look

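Within groups of 5 mice, 24 of 320 sets of values held a library whose gap to the next value, divided by the range of the group, was above 0.71, the 95% limit of Dixon's test. About 16.0 are expected by chance, and sets that share a library are not independent. The sets covered all 37 genes (23 cases in 296 sets), the library totals, the summed level of the genes and the share of ribosomal RNA.

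Replicate 5 of the Akita mice given MitoGamide was high for 6 genes. It was at 82.8 CPM for Pdk1, 1205 CPM for Glud1, 119 CPM for Got1 and 202 CPM for Fh1 (130.1 to 138 CPM in the other 4). It was also at 194 CPM for Idh3g (126 to 140.2 CPM in the others) and at 365 CPM for Suclg2 (263 to 282 CPM). Replicate 4 of the same group was high for Mdh2, at 228 CPM.

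Replicate 1 of the Akita mice given MitoQ was high for 4 genes, at 744 CPM for Mdh1 (392 to 470.3 CPM in the others), 159 CPM for Mpc1 (73.9 to 92.4 CPM), 80.7 CPM for Pdhb (51.4 to 59.1 CPM) and 27.3 CPM for Pdhx (15.3 to 17.4 CPM). Replicate 4 of that group was low for Pdp2, at 58.3 CPM against 98.3 to 109.6 CPM.

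In Akita mice on ethanol, replicate 3 was low for Got1 (54.9 CPM against 73.5 to 79.3 CPM in the others), Idh3a (66.3 CPM against 85.4 to 93.0 CPM) and Pdhx (21.8 CPM against 24.9 to 25.8 CPM), and replicate 1 was high for Slc25a11 (108 CPM against 91.8 to 94.2 CPM). In Akita mice on water, replicate 2 was low for Acly, at 80.0 CPM against 106 to 115 CPM.

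Among the WT mice, on ethanol replicate 2 was high for Suclg2 (295 CPM) and replicate 1 low for Me3 (19.9 CPM). Replicate 1 of the MitoGamide group was low for Mpc2 (90.7 CPM), and replicate 3 of the water group was low for Mdh2 (119.6 CPM against 182 to 201 CPM). Replicate 3 of the WT mice given MitoQ was low for Mpc2 (41.1 CPM against 89.8 to 107 CPM) and high for Me3 (36.98 CPM against 26.4 to 29.3 CPM). The share of counts on ribosomal RNA rows was 63.2% in that library, against 20.8% to 25.9% in the other 4.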

How the results depend on the processing

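For the genes called in a comparison, 809 values under alternative settings were computed, of which 665 kept the call, 144 lost it and 0 reversed. Fits that left out 1 of the 40 libraries over all arms made up much of this pool. There each called gene kept its call in 34 to 40 of 40 fits. On ethanol and with MitoGamide, called genes kept it in 2 to 10 of 10 fits. Leaving out 1 library can hardly reverse a called estimate, so the 0 says little. Estimates near 0 of genes without a call could change sign, such as Got2 on water, at 0.01 and, without the libraries over 30% ribosomal RNA, at -0.08. The count of called genes moved as follows, with the share of the 37 and that of all genes tested in brackets. On ethanol (8 calls) it was 5 with no count filter (13.5%, 6.95%), 3 with all 40 libraries in 1 fit (8.11%, 4.75%) and 5 (13.5%, 12.2% to 14.2%) to 8 (21.6%, 14.8%) when leaving out 1 library. With MitoGamide (15 calls) it was 9 with no count filter (24.3%, 5.59%), 6 with all 40 libraries in 1 fit (16.2%, 11.3%), 19 with DESeq2 (51.4%, 18.5%) and 3 (8.11%, 8.25%) to 17 (45.9%, 16.9%) when leaving out 1 library. Over all arms (9 calls) it was 14 without the libraries over 30% ribosomal RNA (37.8%, 26.5%), 14 also without the WT water library with Alb (37.8%, 26.3%), 19 in the ethanol arm (51.4%, 31.2%), 1 in the water arm (2.70%, 4.31%) and 8 (21.6%, 21.4% to 22.0%) to 14 (37.8%, 23.6%) when leaving out 1 library. DESeq2 gave 1 call for diabetes with MitoQ (2.70%, 2.29%) and 1 for MitoGamide in Akita mice (2.70%, 6.27%), where leaving out 1 library gave 0 to 1. With 10 counts required in every library, the shares of the 37 and of all genes were 21.6% and 19.0% on ethanol. They were 35.1% and 15.8% with MitoGamide, and 29.7% and 27.3% over all arms. The settings on ribosomal RNA, Alb and single arms were chosen after seeing the data. The cause of these changes was not tested. In the replicate block fit, which pairs samples by number, the calls were 6 on ethanol (16.2%, 14.5%), 11 with MitoGamide (29.7%, 13.7%), 10 over all arms (27.0%, 22.7%) and 0 elsewhere, and for MitoGamide in Akita mice it called 0 of all genes. The numbers were not taken to pair the mice: same-number correlations ran from -0.0053 to 0.0827 on ethanol and from -0.534 to 0.561 on water, no comparison had all of them above 0.1, and 1 to 3 of 10 libraries correlated best with their own number. Limits: water arm fits carry wide errors, so a missing call there does not show that a gene was unchanged, and Pdp1 and Me2 rest on as few as 10 and 12 counts.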
